A study of Mus musculus with 8 samples.

Results

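The genes described here were 9 mouse genes of nucleic acid sensing: Dhx58, Ddx58, Ifih1, Mavs, Zbp1, Tlr3, Irf3, Irf7 and Eif2ak2. They were taken by name from the arrays, with every probe of each gene, and made up 9 of 37074 gene names and 18 of 56605 probes. The list was chosen by measured values of this same comparison, in which Dhx58 had passed the threshold, so the differences of the members between the groups are given below as a description. Where a member is said to be called or not called, this says which side of the study's limits it fell on, and it is not evidence for a change. The label of cytosolic sensors holds for Dhx58, Ddx58, Ifih1, Zbp1 and Eif2ak2. Mavs is an adaptor on the mitochondrial membrane, Tlr3 is a receptor of the endosome, and Irf3 and Irf7 are transcription factors downstream of the sensors.

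The Pg mice were C57BL/6J mice, 12 weeks old, that received sonicated Porphyromonas gingivalis, a Gram-negative bacterium of periodontal disease, by intravenous injection at 100000000 colony-forming units in 100 μL of saline. The Co mice were of the same strain and age and received saline alone. Total RNA of the brown adipose tissue (BAT), a fat depot that burns lipid to make heat, was taken 18 h later from 4 mice in each group and hybridized to 8 one-colour arrays. The design asked how mRNA expression in the BAT differed between Pg and Co mice at this time, and no knockout or inhibitor of a sensor was part of it. Replicate numbers below are those of the labels (Co mice 1 to 4, Pg mice 1 to 4).

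Cells recognise foreign or misplaced nucleic acid with a small set of receptors. RIG-I (encoded by Ddx58) and MDA5 (encoded by Ifih1) are RNA helicases that bind viral RNA in the cytosol and signal through MAVS to the kinases that activate IRF3 and IRF7, which switch on type I interferon genes. LGP2 (encoded by Dhx58) belongs to the same helicase family, lacks the signaling domains of the other two and tunes their activity. ZBP1 binds nucleic acid in the left-handed Z form and can trigger cell death through RIPK3, and PKR (encoded by Eif2ak2) is a kinase that halts translation when it binds double-stranded RNA. Many of these genes are themselves induced by interferon, in immune cells and in most tissue cells.

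All values are log2 signals after quantile normalization across the arrays, and a difference is the mean of the 4 Pg mice minus the mean of the 4 Co mice on that scale, with its standard error (SE) from the fit across all probes. A probe was tested where its signal stood well above background on at least 4 of the 8 arrays, which 33819 probes and 13 of the 18 member probes passed, at least 1 for each of the 9 genes. The arrays carried 34760 to 35831 probes well above background in Co mice and 31132 to 34063 in Pg mice, with no overlap, and all Co arrays lay in slide row 1 and all Pg arrays in slide row 2, so the slide row and the treatment cannot be told apart. Of the 10 markers of brown adipocytes, 6 were well above background on all arrays, whereas Ucp1, Elovl3, Slc27a2 and Bmp8b were dark on all arrays, dark meaning that no array had the probe well above background. All 10 skeletal muscle markers were well above background on all arrays, with a summed signal of 2182000 to 2390000 in Co mice and 2146000 to 2402000 in Pg mice. That sum was carried by genes at the top of the scale on every array, such as Tnnt3 at 18.81 to 18.84, whereas Myh4 ran from 13.38 to 16.97 in Co mice and from 11.38 to 17.07 in Pg mice, with Co mouse 3 and Pg mouse 1 the lowest of their groups. The brown adipocyte marker Cidea was at 13.16 to 13.52 on all arrays, so the markers of the labelled tissue were divided, with Ucp1 dark. The RNA is called BAT here because the labels call it so. In a whole tissue, fewer cells of a type and less RNA per cell cannot be told apart.

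Each probe is an oligonucleotide of 60 bases, and for several genes the probes, which read separate stretches, gave unlike values. The stretches for Dhx58 and for the genes with disagreeing or parallel probes are printed here in the sense of the transcript, with positions on mm9, the build of the array files. Whether a stretch lies in coding sequence or in an untranslated region was not given in the sources used here. For Irf3, Irf7 and Ddx58 one probe is given whole, and for the others the first 30 bases are given.

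Dhx58 A_52_P223809 (chr11:100556271-100556330, minus strand, first 30 bases): ggaagatgaacgcaggagaattattatgcc
Ddx58 A_51_P393748 (chr4:40156918-40156977, minus strand): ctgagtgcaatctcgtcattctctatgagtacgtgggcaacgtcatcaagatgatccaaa
Ddx58 A_55_P1965000 (chr4:40151893-40151952, minus strand, first 30 bases): gttgaaattaaaatctttcaccatgcctgg
Irf3 A_55_P2745005 (chr7:52255810-52255869, plus strand): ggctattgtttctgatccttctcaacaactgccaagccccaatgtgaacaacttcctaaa
Irf3 A_55_P2083939 (chr7:52257700-52257759, plus strand, first 30 bases): ccactggaaatatctgagccccactcagct
Irf7 A_51_P421876 (chr7:148450664-148451014, minus strand): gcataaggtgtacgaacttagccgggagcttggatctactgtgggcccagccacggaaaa
Irf7 A_55_P2744251 (chr7:148449104-148449163, minus strand, first 30 bases): catcgaacacttcctcatggacctgggtca
Tlr3 A_55_P2921249 (chr8:46495198-46495257, minus strand, first 30 bases): aaatcagaatgtacttggctttggaggttg
Tlr3 A_52_P85174 (chr8:46481729-46481788, minus strand, first 30 bases): taatgctcatttttgagacgtttatagaat

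Dhx58 was the member with a higher signal in every Pg mouse and a difference past both limits of the call. On the probe A_52_P223809 (transcript NM_030150), the Co mice had log2 signals of 4.97, 4.79, 5.24 and 5.21, and the Pg mice 5.53, 6.36, 5.66 and 5.72. The lowest Pg mouse lay above the highest Co mouse, and Pg mouse 2 stood apart at the top. The difference was 0.76 on the log2 scale (SE 0.19, n = 4 and 4), a 1.70-fold higher signal in Pg mice.

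A probe was called where its Benjamini-Hochberg adjusted p in limma was under 0.1 and its fold change was above 1.5, the limits of the study's methods. Across all probes 106 were called higher in Pg mice (0.313%) and 440 lower (1.30%), in all 1.61% of those tested. This balance turned under some other processing. It was 66 higher and 28 lower with normexp on the mean signal and 84 and 64 with normexp on the median signal. It was 75 and 33 when the median signal was taken without background subtraction, 20 and 7 without normalization and 60 and 46 in the deposited values. Lower calls stayed in excess without a filter on dim probes (82 higher and 290 lower) and with probes above background on all arrays (107 and 211). They did so too when arrays were scaled to their 75th percentile (137 and 146) and in each fit that left out 1 mouse. Dhx58 was 1 of 13 member probes called. Since the list was drawn up around this call, nothing is read from that count. Among the members the nearest probes that were not called were Ddx58 A_55_P1965000 and Irf3 A_55_P2745005, whose differences were 0.37 and -0.27. The second Dhx58 probe, A_51_P363218, which was designed to another transcript, was dark on all arrays.

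The Dhx58 signal was dim. The dimmest signal well above background was between 3.67 and 4.01 in Co mice and between 4.06 and 4.72 in Pg mice, and the Dhx58 values of 4.79 to 6.36 lay little above it. The difference was 0.35 with normexp correction of the mean signal and 0.52 in the normalized log2 values that the authors deposited, which differ in several choices at once, and both lay under the log2 fold limit of 0.58. Across 17 other ways of processing, Dhx58 was higher in Pg mice in all 17, with differences of 0.35 to 0.95, and was called in 3. When 1 mouse was left out at a time, the call held in 1 of 8 fits, that without Pg mouse 3, and without Pg mouse 2 the difference was 0.58, just under the limit.

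**Figure D1:**
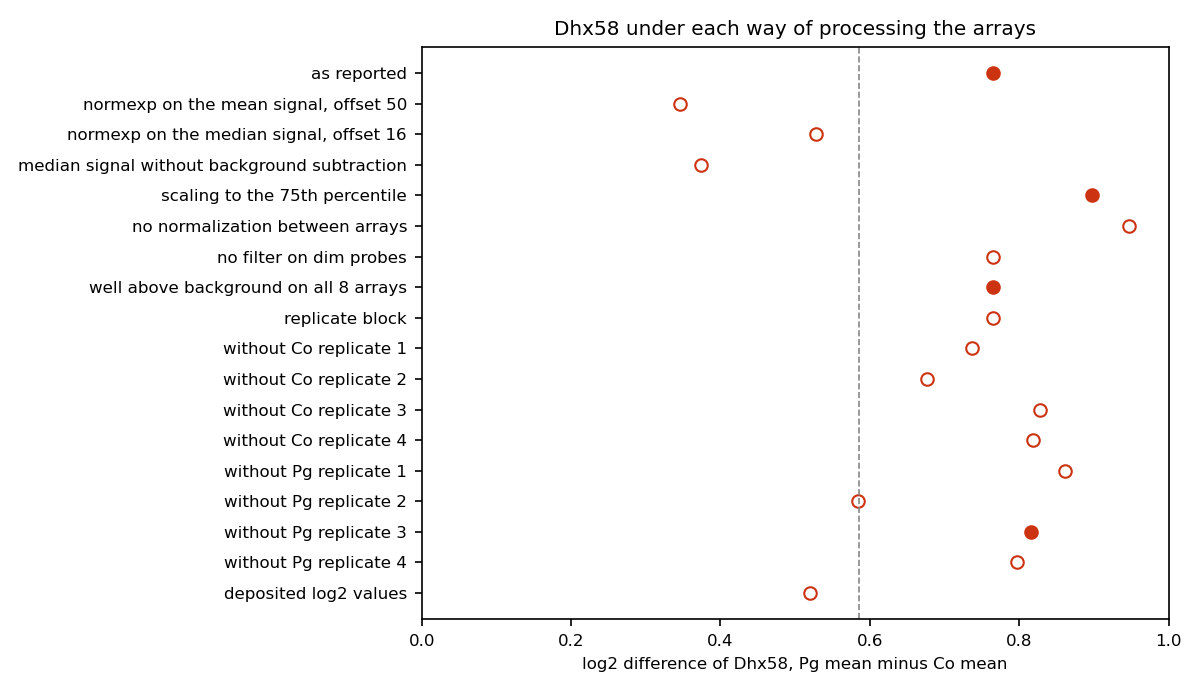
Difference of Dhx58 (probe A_52_P223809) between Pg and Co mice on the log2 scale under each way of processing the arrays. Filled points were called, open points were not, and the dashed line marks the fold limit of 0.58; all points lie above 0, between 0.35 and 0.95, and the filled ones are the reported value and 3 of the 17 alternatives.

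Ddx58, the gene of RIG-I, had 4 probes along its transcript NM_172689. On A_55_P1965000, which lies farthest along the transcript, the Co mice had log2 signals of 7.95, 8.01, 8.15 and 8.26 and the Pg mice 8.40, 8.72, 8.32 and 8.43. On A_51_P393748 the Co mice had 6.27, 6.74, 6.52 and 6.67 and the Pg mice 6.96, 7.09, 6.83 and 6.75. On both probes every Pg mouse lay above every Co mouse, by a small margin at the closest pair, and Pg mouse 2 was again the highest. The differences were close to each other, 0.37 (SE 0.11) and 0.36 (SE 0.12), or 1.29-fold and 1.28-fold, and neither was called. With normexp on the mean signal they were 0.37 and 0.18, so the second moved with the processing. Another probe, A_55_P2609358, was well above background in 3 Co mice and 1 Pg mouse and differed by 0.14 (SE 0.33), and the last one was dark on all arrays.

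Ifih1, the gene of MDA5, did not separate the groups. On A_51_P387810 the Co mice had log2 signals of 7.29, 7.17, 7.33 and 7.65 and the Pg mice 7.30, 7.74, 7.45 and 7.50. The difference of 0.14 (SE 0.13) was of the size of its SE, and Co mouse 4 lay above all Pg mice but the highest. It was 0.06 without Pg mouse 2, 0.07 without Co mouse 2 and 0.23 without Co mouse 4. The other Ifih1 probe was dark on all arrays. Of the 3 helicases, then, the signals differed by 0.76 for Dhx58, 0.36 and 0.37 for the brighter Ddx58 probes and 0.14 for Ifih1; whether these differences differ from each other was not tested.

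Mavs, the adaptor that RIG-I and MDA5 signal through, varied little among the mice. The Co mice had log2 signals of 14.59, 14.54, 14.67 and 14.62 and the Pg mice 14.47, 14.51, 14.61 and 14.49. The groups overlapped through Pg mouse 3, and the difference was -0.08 (SE 0.06).

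**Figure D2:**
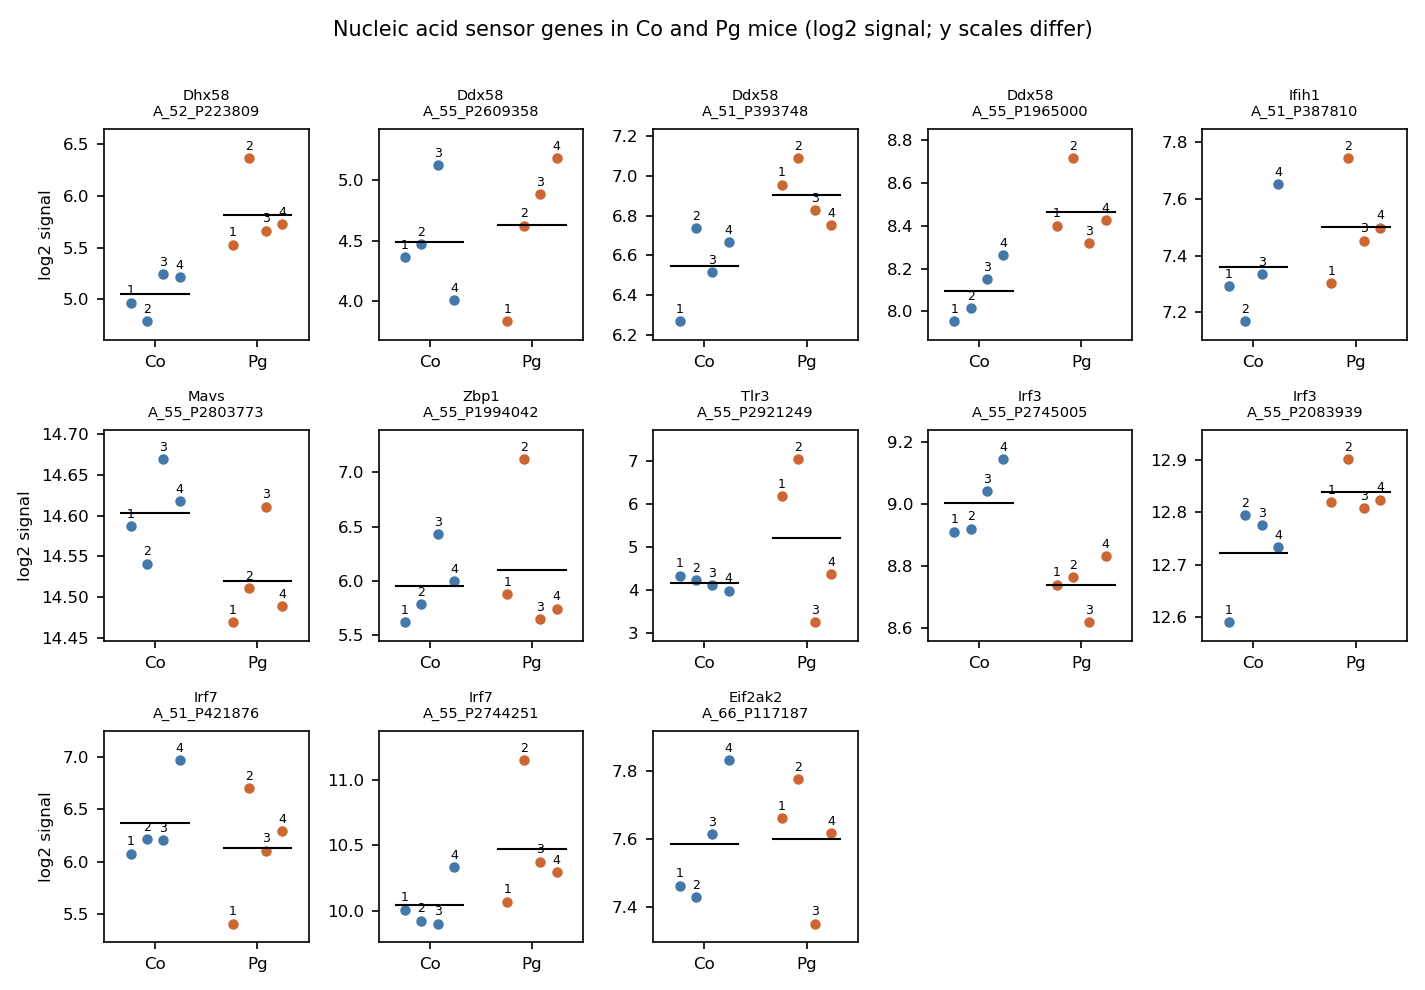
Log2 signal of each of the 13 tested probes of the 9 genes in the 4 Co mice (blue) and the 4 Pg mice (orange), 1 panel for each probe with its own scale, with the mouse number above each point and the group mean as a bar. The groups stand apart for Dhx58, for 2 Ddx58 probes and, in opposite directions, for the 2 Irf3 probes, and Pg mouse 2 is the highest Pg mouse in 10 of the 13 panels.

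Irf3, which is activated by phosphorylation and is present in most cells before any infection, gave opposite results on its probes, both designed to NM_016849. On A_55_P2745005 the Co mice had log2 signals of 8.91, 8.92, 9.04 and 9.14 and the Pg mice 8.74, 8.76, 8.62 and 8.83, so every Pg mouse lay below every Co mouse. On A_55_P2083939, which lies farther along the transcript, the Co mice had 12.59, 12.79, 12.78 and 12.73 and the Pg mice 12.82, 12.90, 12.81 and 12.82, so every Pg mouse lay above every Co mouse. The differences were -0.27 (SE 0.08) and 0.12 (SE 0.06), neither was called, and each kept its sign under all 16 other settings in which it was measured. The size of the second moved, from 0.07 without Co mouse 1 to 0.19 with normexp on the mean signal. In the deposited table the entry for Irf3 was the average of both probes, and there the groups differed by -0.02, with Co mice at 10.84, 10.97, 11.02 and 11.07 and Pg mice at 10.95, 10.98, 10.89 and 10.99.

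Irf7, which is induced by interferon and amplifies it, also had a pair of probes, both designed to NM_016850, with differences of opposite sign that were not tested against each other. On A_55_P2744251 the Co mice had log2 signals of 10.01, 9.93, 9.91 and 10.34 and the Pg mice 10.07, 11.15, 10.38 and 10.30. Pg mouse 2 lay far above the rest, Pg mouse 3 just above the highest Co mouse and the others within the Co range, with a difference of 0.43 (SE 0.23) over all mice and 0.20 without Pg mouse 2. On A_51_P421876, whose stretch spans 2 pieces of the genome that are joined in the transcript, the Co mice had 6.08, 6.22, 6.21 and 6.97 and the Pg mice 5.41, 6.70, 6.10 and 6.29. Here Pg mouse 1 lay below all Co mice and the others among them, and the difference was -0.24 (SE 0.30). It was -0.00089 without Pg mouse 1, -0.04 without Co mouse 4 and -0.43 without Pg mouse 2. On both probes Co mouse 4 was the highest Co mouse, Pg mouse 2 the highest Pg mouse and Pg mouse 1 the lowest. The deposited entry for Irf7 averaged both probes and differed by 0.16.

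Tlr3, the endosomal receptor for double-stranded RNA, had the widest spread among the members, at signals near background. On A_55_P2921249 the Co mice had log2 signals of 4.33, 4.22, 4.11 and 3.98 and the Pg mice 6.17, 7.03, 3.24 and 4.37. Pg mice 1 and 2 lay far above all Co mice, Pg mouse 4 just above them and Pg mouse 3 below them, where the probe was not well above background. The measured difference was 1.04 (SE 0.75) and was not called. It is uncertain, because the Co mean of 4.16 lay below the mean of the dimmest signals well above background in Pg mice and the value of Pg mouse 3 was itself not well above background. It was 0.43 without Pg mouse 2 and 1.70 without Pg mouse 3, and it was 0.49 with normexp on the mean signal, 0.56 with normexp on the median signal, 0.46 with the unsubtracted median signal and 0.55 in the deposited values, all under the fold limit. The other Tlr3 probe, A_52_P85174, was well above background in 3 Co mice and in no Pg mouse and was not tested. Its measured signals were 3.86, 4.97, 4.13 and 3.86 in Co mice and 2.21, 3.37, 2.08 and 2.94 in Pg mice, and no fold is given because its Co mean, 4.21, was likewise below that level.

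The Pg mice that were high on the first Tlr3 probe, 1 and 2, were also the highest for the neutrophil markers S100a8 and S100a9, which were picked after their values were seen. Among the Pg mice these 2 were also the highest for Ly6g, whereas Mpo and Elane were highest in Pg mouse 4 and Csf3r in Pg mouse 3. The log2 signals of S100a8 in Pg mice 1 to 4 were 8.59, 8.32, 5.18 and 6.76, against 4.56 to 5.33 in Co mice. Of the 8 neutrophil markers 6 were tested, 5 of them with a higher mean in Pg mice and none called, the marker Ngp was dark on all arrays, and the summed signal of the list was 40620 to 50780 in Co mice and 48370 to 55470 in Pg mice, most of it the signal of Csf3r. The part of these cells in the Tlr3 signal was not tested.

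For Zbp1, the sensor of Z-form nucleic acid, the group mean turned on a single mouse. On A_55_P1994042 the Co mice had log2 signals of 5.61, 5.78, 6.43 and 5.99 and the Pg mice 5.87, 7.12, 5.65 and 5.74. Pg mouse 2 was 1.17 above the Co mean, and the other Pg mice lay within the range of the Co mice. The difference over all mice was 0.14 (SE 0.34), and without Pg mouse 2 it was -0.20. The other Zbp1 probe was dark on all arrays.

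Eif2ak2, the gene of PKR, showed the smallest difference of the members. The Co mice had log2 signals of 7.46, 7.43, 7.61 and 7.83 and the Pg mice 7.66, 7.78, 7.35 and 7.62 on A_66_P117187. The groups overlapped, with Pg mouse 3 below all Co mice, the difference was 0.02 (SE 0.12), and its sign was positive under 9 of 17 other settings and negative under 8.

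Taking the 13 probes as a list, 10 had a higher mean in Pg mice and 3 a lower one, with differences of -0.27 to 1.04 and a median of 0.14. Over all probes tested, 42.3% had a higher mean in Pg mice and the median difference was -0.04. The groups did not overlap for 4 member probes with Pg above Co (Dhx58, 2 of Ddx58 and 1 of Irf3), where the background was 4.83% of all probes, and for 1 with Pg below Co (the other Irf3 probe), where the background was 11.0%. Because the rule used this contrast, these counts describe the list and are not evidence that it moved. With probes well above background on all 8 arrays alone, 8 of 11 had a higher mean in Pg mice and the median was 0.14.

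Pg mouse 2 stood out within the Pg group. It had the highest signal of the 4 Pg mice for 10 of the 13 member probes and the lowest for none, whereas over all probes tested it was the highest for 23.3% and the lowest for 27.6%. The median deviation of the 13 probes from their Co means was 0.38 in Pg mouse 2, against 0.03, 0.09 and 0.14 in Pg mice 1, 3 and 4, and between -0.12 and 0.14 in the Co mice. In Pg mouse 2, Tlr3 was 2.87 above its Co mean, Dhx58 1.31, Zbp1 1.17 and the brighter Irf7 probe 1.10. Without this mouse the median difference of the member probes was 0.09.

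The summed signal of the macrophage markers was also at its highest in Pg mouse 2. Of these 10 genes all were well above background on all arrays, 8 had a higher mean in Pg mice and none was called. Their summed signal was 34990 to 41030 in Co mice and 33620 to 54430 in Pg mice, the top value being that of Pg mouse 2, although Cd163 and Itgam did not peak in that mouse. The largest signals in the sum were those of Itgam and Lyz2. Itgam was at 14.47 to 14.76 in Co mice and 14.48 to 14.66 in Pg mice. Lyz2 was at 12.15 to 13.15 in Co mice, and at 12.98, 14.22, 12.32 and 14.14 in Pg mice 1 to 4, so it was high in Pg mouse 4 as well. The summed signal of the T, B and NK cell markers was 1646 to 1862 in Co mice and 1637 to 1793 in Pg mice, and Cd3g, Ncr1 and Klrb1c were dark on all arrays. The markers of plasmacytoid dendritic cells, which make interferon through IRF7, summed to 417000 to 428100 in Co mice and 448600 to 450000 in Pg mice, where most of the sum was the signal of Cox6a2, a gene that muscle also expresses. The part of any of these cells in the values of the members was not tested.

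**Figure D3:**
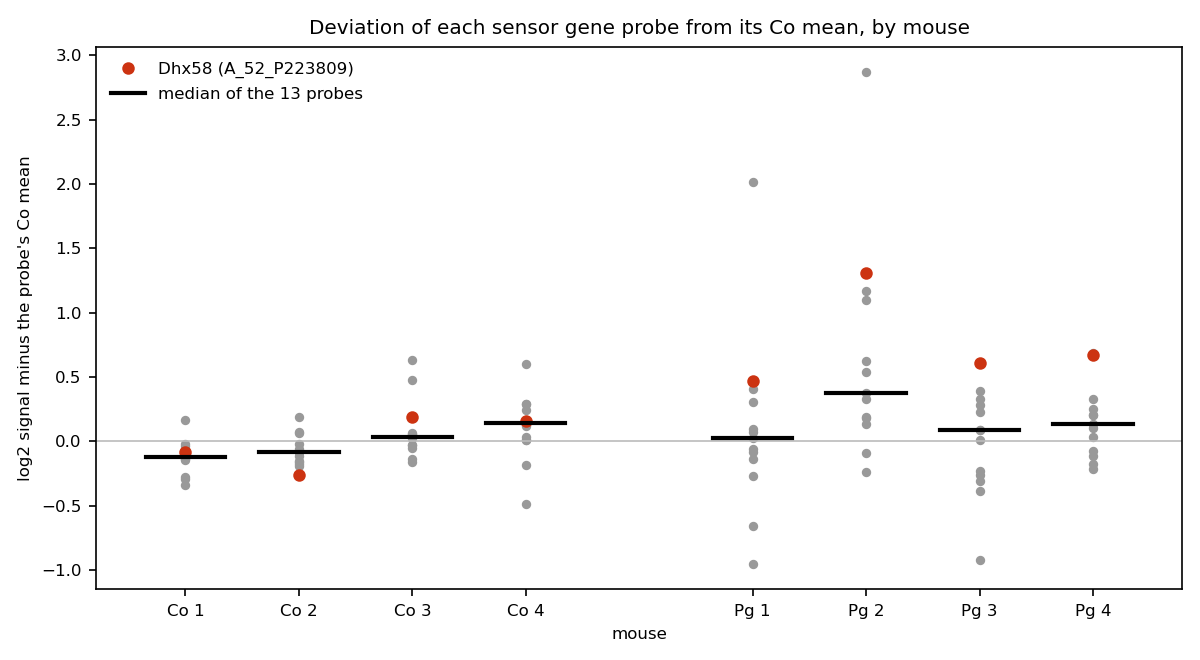
Deviation of each of the 13 member probes from its mean over the 4 Co mice, on the log2 scale, in each of the 8 mice; grey points are probes, red points are Dhx58 and black bars are the median of the 13 probes. The median is 0.38 in Pg mouse 2 and between -0.12 and 0.14 in the other mice, and Dhx58 lies above 0 in all 4 Pg mice.

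The genes whose pattern over the 8 arrays was nearest to that of Dhx58 were Wdr78, Mx2, Plcg2, Sp110 and Igf1. Likeness was the root mean square difference between log2 profiles, each centred on its own mean, over 29211 probes well above background on all arrays and outside the list. It was 0.14 for Wdr78, 0.15 for Mx2, 0.15 for Plcg2, 0.15 for Sp110 and 0.17 for Igf1. Wdr78, the nearest, had log2 signals of 7.09, 7.21, 7.43 and 7.42 in Co mice and 7.71, 8.65, 7.88 and 7.60 in Pg mice. Mx2, of the Mx family of GTPases, had log2 signals of 5.74, 5.57, 6.08 and 6.07 in Co mice and 6.27, 6.99, 6.38 and 6.08 in Pg mice, with the top value in Pg mouse 2 as for Dhx58. Sp110, a nuclear body protein, had 7.94, 7.85, 8.33 and 8.21 in Co mice and 8.62, 9.13, 8.30 and 8.76 in Pg mice. All 5 profiles put Pg mouse 2 at the top, as Dhx58 did, and the lowest mouse was Co mouse 2 for Mx2, Sp110 and Igf1 and Co mouse 1 for Wdr78 and Plcg2.

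Among the members, the brighter Irf7 probe and Ddx58 A_55_P1965000 were the nearest to Dhx58, at 0.23 and 0.25, and 0.13% and 0.27% of the probes compared were nearer than they were. The lower Irf7 probe, by contrast, lay at 0.58, with 77.3% of the probes nearer, and the Tlr3 probe at 0.97, with 99.5% nearer. Likeness over 8 arrays is a description: the profiles share the arrays and the contrast that chose Dhx58.

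The core of the element that interferon-activated factors bind, GAAANNGAAA on either strand, was looked up in the 300 bases around the start sites of the members, from 250 bases before to 50 bases after, in RefSeq on GRCm38.p6. Of the 9 genes 7 had such a window, and Dhx58 and Zbp1 are named only. The motif was found in 3 of the 7, Ddx58, Ifih1 and Eif2ak2, in each case once and within the 50 bases after the start site, whereas 3.44% of all 32851 windows held it. The 30 bases around each match are shown on the strand of the gene, with the match in capitals. In Ddx58 the match is on the opposite strand.

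Ddx58 (chr4:40239804-40239833, minus strand): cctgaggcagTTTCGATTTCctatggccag
Ifih1 (chr2:62646206-62646235, minus strand): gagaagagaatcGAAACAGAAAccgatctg
Eif2ak2 (chr17:78882535-78882564, minus strand): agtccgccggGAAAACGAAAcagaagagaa

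The values of the 3 genes that hold the motif lay side by side as follows. The brighter Ddx58 probes were higher in every Pg mouse than in every Co mouse, while the groups overlapped for Ifih1 and Eif2ak2; whether the 3 genes differ in this was not tested. No match was found in the windows of Mavs, Tlr3, Irf3 and Irf7, which says only that these letters are not in those 300 bases.

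Around the members, 110 genes of 7 lists were followed, each on its brightest probe. Of these 99 were tested, 57 had a higher and 42 a lower mean in Pg mice, the median difference was 0.03, and 1 was called, or 1.01% against 1.61% of all probes. Complete separation of the groups was found for 15 of these 99 genes (15.2%), 7 with Pg above Co and 8 below, where the background was 4.83% above and 11.0% below.

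The gene called was Ripk3, the kinase that ZBP1 engages in cell death, in the list of ZBP1 cell death partners. Its log2 signals were 6.48, 6.65, 6.34 and 6.47 in Co mice and 7.48, 7.22, 6.71 and 7.36 in Pg mice, and every Pg mouse lay above every Co mouse. The Ripk3 difference was 0.71 on the log2 scale (SE 0.16, limma adjusted p = 0.0703). The lists were chosen with earlier results of these data known, so this call is not evidence for a change. Ripk3 was not called with normexp on the mean or the median signal, the unsubtracted median signal or no normalization. Nor was it called without a filter on dim probes, with a replicate block or in the deposited values. As for Dhx58, the call held in 1 of 8 fits that left out 1 mouse, that without Pg mouse 3, although the difference stayed between 0.61 and 0.87. Zbp1 itself, as given above, differed by 0.14. In the same list 5 of 7 genes had a higher mean in Pg mice and the median was 0.16. Cflar, which holds back caspase-8, differed by 0.18 (limma adjusted p = 0.183).

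Among the 19 tested signaling partners of the RIG-I-like receptors, none was called, 12 had a higher and 7 a lower mean in Pg mice, and 6 had groups that did not overlap, 3 with Pg above Co and 3 below, beside the background of 4.83% and 11.0%. Traf3, a ubiquitin ligase between MAVS and the kinases that activate IRF3, had log2 signals of 11.97, 11.95, 12.20 and 12.18 in Co mice and 12.41, 12.44, 12.41 and 12.45 in Pg mice. The Pg values were tightly grouped above all Co values, and the difference of 0.35 (SE 0.07, limma adjusted p = 0.0621) was below the fold limit. Ikbkg, the regulatory subunit of the kinase that activates NF-κB, differed by -0.25 (limma adjusted p = 0.138). Among the 15 inhibitors of these receptors none was called, 7 had a higher and 8 a lower mean in Pg mice, and the median was 0.00. Tkfc, a kinase of sugar metabolism that binds MDA5, differed by -0.38 (SE 0.08, limma adjusted p = 0.0616), with all Pg mice below all Co mice and the fold limit not reached, and Nlrc5 differed by 0.50 (SE 0.35, limma adjusted p = 0.431).

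None of the 17 tested enzymes and cofactors of double-stranded RNA was called, and 10 had a higher mean in Pg mice. Oas1a, an interferon-induced enzyme that makes the activator of RNase L, had the largest difference of the lists. Its log2 signals were 7.04, 7.25, 7.29 and 7.36 in Co mice and 7.90, 8.94, 7.48 and 8.09 in Pg mice. All Pg mice lay above all Co mice with Pg mouse 2 the highest, as for Dhx58, and the difference of 0.87 (SE 0.28) did not pass (limma adjusted p = 0.127), although Oas1a was called, and Ripk3 was not, with normexp on the mean signal. Oas2, of the same family, differed by 0.46 (SE 0.22, limma adjusted p = 0.256). Oas3 and Ddx60 were dark on all arrays.

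Among the 12 endosomal receptors and adaptors none was called on its brightest probe, and 8 had a higher mean in Pg mice. Irak2 of this list was called when any probe of a gene could count. Tlr7, a receptor for single-stranded RNA, differed by -0.32 (limma adjusted p = 0.216), and Slc15a4, an endolysosomal transporter that this signaling needs, by 0.24 (limma adjusted p = 0.115). Among the 18 genes of cytosolic DNA sensing none was called, 9 had a higher and 9 a lower mean, and Aim2 was dark on all arrays. Sting1, the adaptor of this pathway, had log2 signals of 8.47, 8.62, 8.94 and 8.71 in Co mice and 9.48, 9.29, 8.89 and 9.28 in Pg mice. Pg mouse 3 lay below Co mouse 3, and the difference of 0.55 (SE 0.14, limma adjusted p = 0.0876) was under the fold limit. Polr3f, a subunit of RNA polymerase III, differed by 0.30 (limma adjusted p = 0.114).

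Most of the interferon genes listed were dark. Ifnb1, Ifna2, Ifna4, Ifna13 and Ifng, the ligands that the sensors are known to induce or that act beside them, were dark on all arrays of both groups. Ifnl3, a type III interferon, was well above background on all 8 arrays, with means of 7.07 in Co mice and 6.95 in Pg mice (limma adjusted p = 0.571), and Ifna5 was so in 4 Co mice and 1 Pg mouse, with a difference of -0.01 (limma adjusted p = 0.991). Of the 11 tested genes for interferon ligands, the receptor and its transcription complex, 6 had a higher mean in Pg mice and none was called. Stat2, part of that complex, differed by 0.42 (SE 0.15, limma adjusted p = 0.156). Isg15, an interferon-induced ubiquitin-like protein, had 9.57, 9.52, 9.72 and 9.91 in Co mice and 9.64, 10.65, 9.60 and 10.23 in Pg mice. The groups overlapped, Pg mouse 2 was again the highest, and the difference was 0.35 (SE 0.24, limma adjusted p = 0.425).

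**Figure D4:**
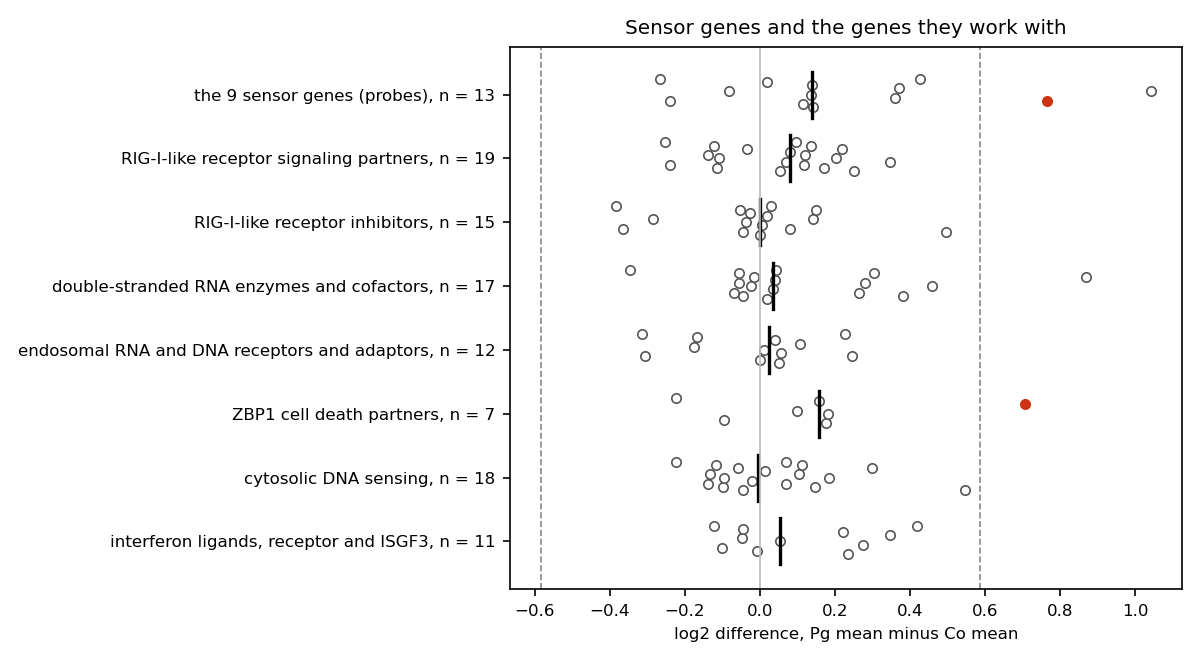
Difference between the Pg and Co means on the log2 scale for the 13 member probes (top row) and for the tested genes of the 7 lists, 1 point for each gene on its brightest probe; black bars are list medians, filled points were called and dashed lines mark the fold limit of 0.58 either way. Dhx58 at 0.76 and Ripk3 at 0.71 are the filled points, while Tlr3 at 1.04, which some other settings put under the limit, and Oas1a at 0.87 were not called.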

How the data were processed

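BAT RNA of 4 Co and 4 Pg mice was hybridized to Agilent one-colour 8 × 60 K arrays. Per the file headers, the authors extracted spot intensity with Feature Extraction 11.0.1.1, which subtracted the background and replaced low values; the series table that the authors deposited holds quantile-normalized log2 values, 1 entry for each accession, which for the members was the mean of the probes of that accession that passed a filter. Flags of 0 or 1, which are neither intensity nor log2, were read beside the signals. The authors' comparison columns (fold changes and p-values) were not used.

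From the processed signals, spots flagged as population outliers were left out (90 to 150 spots on an array), spots of a probe were averaged, the arrays were quantile-normalized, a floor of 1 was set and log2 was taken. Probes well above background on at least 4 arrays (33819 of 56605) were fitted with limma 3.58.1 (R 4.3.3), two-sided, with Benjamini-Hochberg adjustment, and called at an adjusted p under 0.1 and a fold above 1.5, as in the study's methods. The fit was tested on simulated data. Precision is limited by the 8 arrays, which lay on 1 slide and in 1 scan. A p-value sets the difference between the groups against the spread between mice within a group, which limma moderates across all probes. That difference cannot be told apart from the slide row. Alternatives were another background correction, scaling, filter, a replicate block, the deposited values and leaving out each mouse.

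The members and the lists were chosen with earlier results of these data known. Named were all members with every probe, and in each list the genes called. The 2 genes of each list with the largest difference among probes above background on all arrays were named as well. So were the 5 profiles nearest to Dhx58 and markers that were dark on all arrays. S100a8, S100a9, Ly6g, Mpo, Elane, Csf3r, Cd163, Itgam, Lyz2, Cox6a2, Tnnt3, Myh4, Cidea, Irak2, Ifnl3 and Ifna5 were named after their values were seen.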

Additional observations from a re-analysis of the deposited data

Results flagged for a closer look

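Of 54 groups of 4 mice checked among the values of the members and the named genes, 2 had a mouse whose gap to its nearest neighbour was a larger part of the range of the group than Dixon's critical value for 4 samples, and chance gives this in about 1 of 20 groups. Zbp1 A_55_P1994042 was at 7.12 in Pg mouse 2, against 5.65 to 5.87 in the other Pg mice. Irf7 A_51_P421876 was at 6.97 in Co mouse 4, against 6.08 to 6.22 in the other Co mice.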

How the results depend on the processing

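Over all probes 546 were called, and the other settings gave 94 (66 higher, 28 lower) with normexp on the mean signal, 148 (84 and 64) with normexp on the median signal, 108 (75 and 33) with the median signal and no background subtraction, 283 (137 and 146) when arrays were scaled to their 75th percentile, 27 (20 and 7) without normalization, 318 (107 and 211) with probes above background on all arrays, 106 (60 and 46) in the deposited values, and 3 (without Co mouse 3) to 697 (without Pg mouse 3) with 1 mouse left out. Without a filter on dim probes 372 were called (82 higher and 290 lower). Member probes called numbered 0 with normexp on the mean signal, normexp on the median signal, the unsubtracted median signal, no normalization, no filter on dim probes and the deposited values, and 0 to 1 with 1 mouse left out. The genes called among the lists numbered 0 with normexp on the median signal, the unsubtracted median signal, no normalization, no filter and the deposited values. They numbered 1 with normexp on the mean signal (Oas1a in place of Ripk3), 2 when any probe of a gene could count (Irak2 and Ripk3), and 0 to 3 with 1 mouse left out. The median difference of the members was 0.077 with the unsubtracted median signal, 0.256 when arrays were scaled to their 75th percentile and 0.31 without normalization. It was 0.095 (without Pg mouse 2) to 0.298 (without Co mouse 3) with 1 mouse left out, and 6 of 9 deposited entries were higher in Pg mice. The replicate number was also the slide column of the array. Deviations of same-numbered mice correlated at 0.06, -0.03, -0.07 and 0.18. Co mice 1 and 4 correlated best with the Pg mouse of their own number, and Co mice 2 and 3 with another. These values cannot settle whether the mice were paired. With the replicate number as a block 0 probes were called, 0 member probes and 0 list genes. Of the 13 member probes, 10 kept the sign of their difference under all settings run, although Irf7 A_51_P421876 was as near 0 as -0.00089 without Pg mouse 1, and Zbp1, Eif2ak2 and Ddx58 A_55_P2609358 did not. Signals of Dhx58 and Tlr3 near background limit what these arrays can show, and the cause of each lost call was not tested.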
